A study of Mus musculus with 6 samples.

Results

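The host gene *Ptk2* of miR-151 and 8 genes around it on mouse chromosome 15 were followed in cultured neural stem cells (NSCs). The 9 genes, *Ptk2*, *Ago2*, *Chrac1*, *Trappc9*, *Dennd3*, *Slc45a4*, *Ptp4a3*, *Peg13* and *Kcnk9*, were taken as a list of symbols and matched to Ensembl rows of a table of 32493 genes. Of these genes, 16710 had enough counts to be tested, among them 8 of the 9.

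The NSCs came from the lateral ventricles of E14.5 mouse embryos on a C57BL/6J background and were passaged in culture before RNA-seq. Conditional knockout (cko) embryos were homozygous for a miR-151 allele flanked by loxP sites (fl/fl) and carried Emx1-IRES-Cre, which is active in the dorsal telencephalon. Control (ctrl) embryos were fl/fl without Cre, although the sample labels call them wt, so both genotypes carried loxP sites inside a *Ptk2* intron and no library came from an unmodified locus. The question put to these genes was whether the levels of the host gene and its neighbours differed between the genotypes.

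The table had 3 cko and 3 ctrl columns. In all 32493 rows, the value under ctrl replicate 2 was that of ctrl replicates 1 and 3 averaged and then rounded up, so it was counted in no n and 2 ctrl libraries were compared with 3 cko libraries. The ctrl libraries held 22773559 and 18950862 counts, and the cko libraries held 17883796, 23335736 and 21736269. The cko and ctrl embryos were littermates per the study, but the sources used here do not state which libraries share a litter or an embryo, so the p-values measure the spread between these samples, which may in part be technical. *Mir151* had no row in the table, so the deletion itself could not be checked in these libraries.

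*Ptk2* encodes focal adhesion kinase (FAK), a tyrosine kinase that is recruited to integrins where cells attach to the extracellular matrix and that passes adhesion signals on through Src and adaptor proteins. In the developing cortex, FAK is known for its part in the migration of neurons and in the attachment of radial glia to the basement membrane. Farther from *Mir151*, on the side of *Ago2*, lies an imprinted domain, in which the noncoding RNA *Peg13* is made from the paternal allele inside an intron of *Trappc9*, and the potassium channel gene *Kcnk9* is expressed mainly from the maternal allele in brain.

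In the GRCm38 assembly with the GENCODE M21 annotation, *Mir151* occupies chromosome 15, minus strand, positions 73254815 to 73254882. *Ptk2* (ENSMUSG00000022607) spans 73205102 to 73423280 on the same strand. *Mir151* sits in a *Ptk2* intron of 14556 bp, 2151 bp from the exon upstream and 12337 bp from the exon downstream, and overlaps no *Ptk2* exon.

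The genotype means of *Ptk2* differed by less than its ctrl libraries did. Its level was 133 and 150 CPM (counts scaled to library size, with the TMM correction for library composition) in ctrl replicates 1 and 3, and 142, 138 and 140 CPM in cko replicates 1, 2 and 3. All 3 cko libraries lay between the 2 ctrl libraries. The mean was 141 CPM in ctrl and 140 CPM in cko, and the log2 fold change of cko against ctrl was -0.01 ± 0.078 (SE), with an adjusted p of 0.943 in edgeR's quasi-likelihood test with Benjamini-Hochberg adjustment. The 95% confidence interval ran from -0.19 to 0.17 on the log2 scale, a fold between 0.874 and 1.13, so a larger change of *Ptk2* than that was outside the interval. Over the 5 libraries, the SD of log2(CPM + 1) of *Ptk2* was 0.062, beside a median of 0.153 over the 10180 tested genes with a mean of at least 10 CPM.

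**Figure D1:**
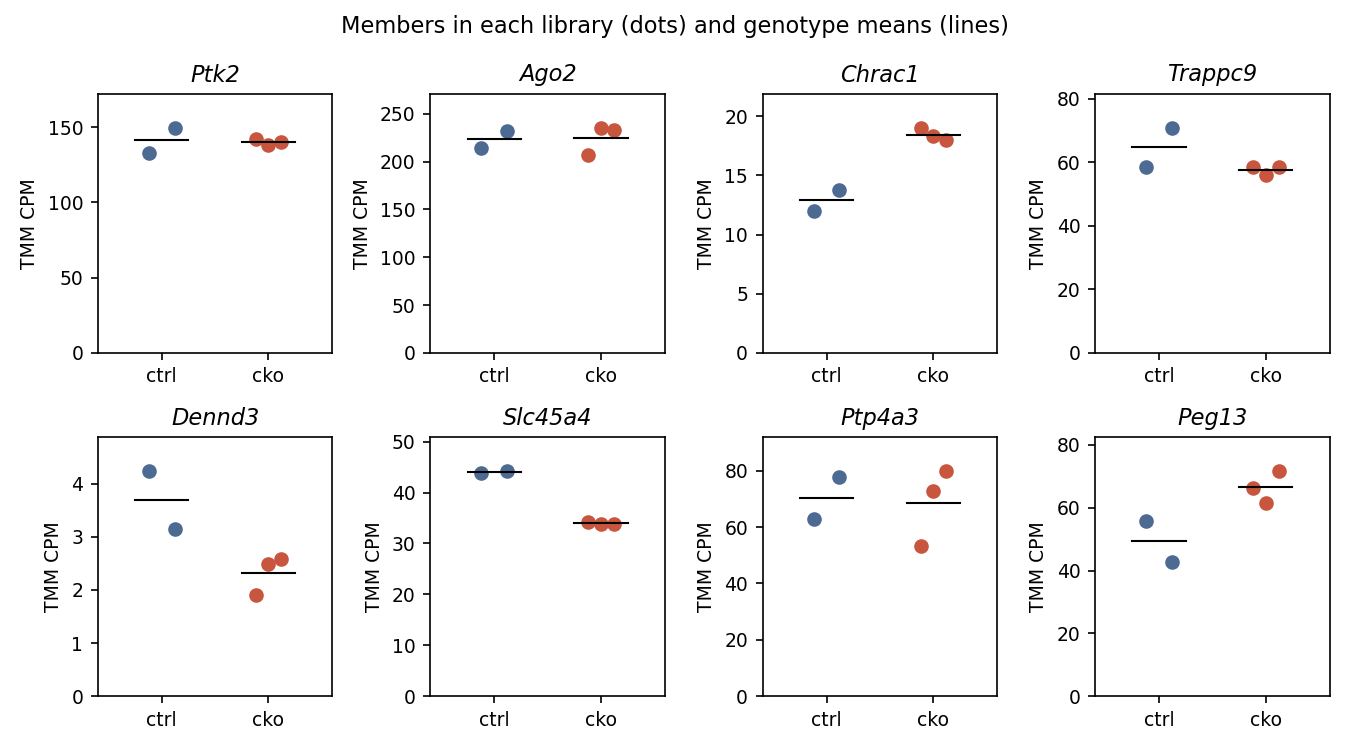
Level of each tested member in TMM CPM (vertical axis, from 0) in ctrl replicates 1 and 3 (blue) and in cko replicates 1, 2 and 3 (red), with a line at each genotype mean. The cko libraries lay above both ctrl libraries for *Chrac1* and *Peg13*, below both for *Slc45a4*, *Dennd3* and, narrowly, *Trappc9*, and among them for *Ptk2*, *Ago2* and *Ptp4a3*.

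*Ago2* (ENSMUSG00000036698), 69.9 kb from *Mir151* on the minus strand from 73095844 to 73184935, encodes the Argonaute protein that binds miRNAs and can cut a target RNA. It was at 215 and 232 CPM in ctrl and at 207, 235 and 233 CPM in cko. The lowest and the highest of the 5 libraries were both cko, so the genotypes overlapped. The log2 fold change of *Ago2* was 0.01 ± 0.087 (SE), with a 95% confidence interval from -0.20 to 0.21 and an adjusted p of 0.958 (edgeR, Benjamini-Hochberg).

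*Chrac1* (ENSMUSG00000068391), on the plus strand from 73090392 to 73097554, encodes a histone-fold subunit of the chromatin accessibility complex, which slides nucleosomes. It was at 12.01 and 13.77 CPM in ctrl and at 19.02, 18.35 and 17.97 CPM in cko. All 3 cko libraries were above both ctrl libraries. *Chrac1* rose by a log2 fold change of 0.52 ± 0.123 (SE; 95% confidence interval 0.23 to 0.81), a fold of 1.43, with an adjusted p of 0.0304 (edgeR, Benjamini-Hochberg). The call was lost when ctrl replicate 1 (adjusted p of 0.0617), cko replicate 1 (0.0863), cko replicate 2 (0.13) or cko replicate 3 (0.119) was left out, within a range of 0.00414 to 0.13 over 11 alternatives, of which 6 kept the call, while the log2 fold change stayed between 0.41 and 0.62. A fit with the replicate number as a block also lost the call of *Chrac1* (adjusted p of 0.0899, edgeR, Benjamini-Hochberg). The lowest adjusted p of the range came from the fit with all 6 columns. That fit counts the averaged ctrl column as a library and is among the 6 that kept the call. *Chrac1* and *Ago2* overlap on opposite strands by 1711 bp, which includes 219 bp of exon or 9.3% of the exon length of *Chrac1*. Whether the counting used strand is not given in the sources used here, so reads of the shared stretch cannot be assigned to either gene.

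*Slc45a4* (ENSMUSG00000079020), 323 kb from *Mir151* on the minus strand from 73577424 to 73645762, encodes a membrane transporter of the SLC45 family. It was at 43.8 and 44.2 CPM in ctrl and at 34.2, 33.9 and 33.7 CPM in cko. Every cko library was below both ctrl libraries, and the libraries of a genotype lay close together. *Slc45a4* fell by 0.37 on the log2 scale (SE 0.079; 95% confidence interval -0.56 to -0.19), to 0.771 of the ctrl level, with an adjusted p of 0.0202 (edgeR, Benjamini-Hochberg). The call was lost without cko replicate 2 (adjusted p of 0.0938) and without cko replicate 3 (0.0968), within a range of 0.00187 to 0.0968 over 11 alternatives, of which 8 kept the call. A fit with the replicate number as a block also lost the call (adjusted p of 0.0886, edgeR, Benjamini-Hochberg). The lowest adjusted p of the range came from the fit with all 6 columns. That fit counts the averaged ctrl column as a library and is among the 8 that kept the call. In bulk RNA, fewer cells of a type and less RNA per cell cannot be told apart, for *Slc45a4* as for the other genes here.

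*Dennd3* (ENSMUSG00000036661), on the plus strand from 73512560 to 73572242, encodes a DENN-domain protein that activates the small GTPase Rab12. It was low, at 4.24 and 3.15 CPM in ctrl and at 1.90, 2.49 and 2.57 CPM in cko, from 34 to 97 counts per library. The 3 cko libraries were below both ctrl libraries. The log2 fold change of *Dennd3* was -0.67 ± 0.26 (SE), the widest error of the tested members, and its adjusted p of 0.124 did not pass the threshold of 0.05 (edgeR, Benjamini-Hochberg).

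*Ptp4a3* (ENSMUSG00000059895), on the plus strand from 73723145 to 73758766, encodes the phosphatase PRL-3. It was at 62.8 and 77.9 CPM in ctrl and at 53.2, 72.8 and 79.9 CPM in cko. Both the lowest and the highest library were cko, and the genotypes overlapped. The log2 fold change of *Ptp4a3* was -0.03 ± 0.175 (SE; 95% confidence interval -0.44 to 0.38), with an adjusted p of 0.92 (edgeR, Benjamini-Hochberg).

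*Trappc9* (ENSMUSG00000047921), on the minus strand from 72589620 to 73061204, encodes a subunit of the TRAPP complex, which works in membrane traffic. It was at 58.6 and 70.8 CPM in ctrl and at 58.5, 56.0 and 58.4 CPM in cko. The cko libraries were below both ctrl libraries, but cko replicate 1 was only just below ctrl replicate 1. The log2 fold change of *Trappc9* was -0.17 ± 0.097 (SE), with an adjusted p of 0.281 (edgeR, Benjamini-Hochberg). Without ctrl replicate 1, *Trappc9* passed the threshold: its log2 fold change was then -0.31 (edgeR, Benjamini-Hochberg adjusted p of 0.033, in a range up to 0.9 over 11 alternatives).

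*Peg13* (ENSMUSG00000106847), on the minus strand from 72805600 to 72810324, lies within *Trappc9* on the same strand without sharing an exon with it. It was at 55.7 and 42.8 CPM in ctrl and at 66.4, 61.4 and 71.7 CPM in cko. Each cko library was above both ctrl libraries, and the 2 ctrl libraries differed by 0.37 in log2(CPM + 1), beside a median gap of 0.16 over the 10180 genes. The log2 fold change of *Peg13* was 0.43 ± 0.127 (SE; 95% confidence interval 0.13 to 0.73), with an adjusted p of 0.0593 (edgeR, Benjamini-Hochberg), just short of the threshold. DESeq2 put the adjusted p of *Peg13* at 0.0297, within a range of 0.00134 to 0.201 over 11 alternatives, of which 5 passed the threshold. The 5 include the fit with all 6 columns, which counts the averaged ctrl column as a library. Since *Peg13* lies in a *Trappc9* intron on the same strand, reads from unspliced *Trappc9* RNA cannot be told apart from those of *Peg13*.

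*Kcnk9* (ENSMUSG00000036760), on the minus strand from 72501089 to 72546340, encodes a potassium channel of the two-pore family. It had 1 and 4 counts in ctrl and 0, 0 and 1 counts in cko. All but 1 of these values were below the floor of 3 counts, which stood at 0.129 to 0.168 CPM, so no fold is given and a difference was not detectable at this depth.

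**Figure D2:**
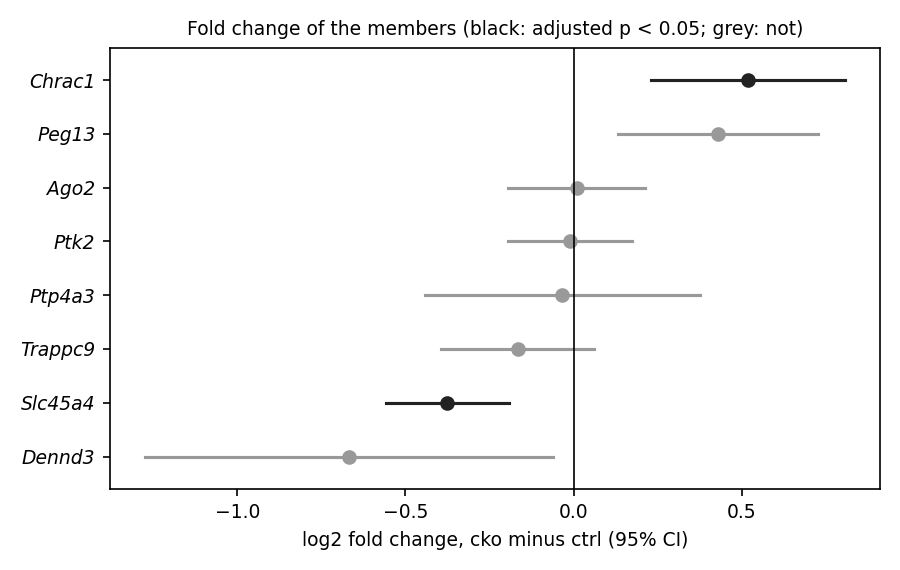
Log2 fold change of cko against ctrl (horizontal axis) for the 8 tested members, with 95% confidence intervals. The intervals of *Chrac1* and *Slc45a4*, in black, had an adjusted p under the threshold, and those of *Ptk2* and *Ago2* were centred near 0.

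Of the 8 tested members, 1 rose and 1 fell at an adjusted p under 0.05 (edgeR, Benjamini-Hochberg). Among all 16710 tested genes, 16.4% were called in either direction, 7.86% higher and 8.57% lower in cko. With 2 of 8 called, the members were near that background. When cko replicate 2 or cko replicate 3 was left out, edgeR called 0 of the 8. *Chrac1*, *Slc45a4* and *Peg13*, the last not called in the main fit, had an unadjusted p under 0.05 in both fits. The share of all genes under that p is not given for these fits. Over all genes tested in these fits, 4.5% were called without cko replicate 2 and 4.86% without cko replicate 3, and without ctrl replicate 1, 3 of the 8 members were called (37.5%) beside 21.7% of all genes. The genotypes did not overlap in 5 of the 8 members, beside 49.7% of all tested genes. The median log2 fold change was -0.02 over the members and -0.003 over all tested genes. Under the study's own rule, a log2 fold change beyond 0.9 with an unadjusted p under 0.01, edgeR called 0 of the 8 members, beside 6.55% of all tested genes. DESeq2 also called 0 of the 8 under that rule, beside 1116 of all 16710 tested genes. At an adjusted p under 0.05, DESeq2 called 3 of the 8 members (37.5%), beside 19.7% of all tested genes. An unadjusted p under 0.05 in edgeR was found for 4 of the 8 members, beside 32.6% of all tested genes.

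The same comparison was read by distance from *Mir151*. Within 1 Mb, 13 genes were tested and 2 were called, *Chrac1* and *Slc45a4*. This was 15.4%, with an exact binomial 95% confidence interval from 1.92% to 45.4%, and the median log2 fold change was -0.01. Within 5 Mb, 14 of 101 tested genes were called (13.9%), and on chromosome 15 as a whole 119 of 632 (18.8%), beside the 16.4% of all tested genes. Neighbouring genes are not independent, so the interval covers counting error only.

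Besides the members, 5 genes within 1 Mb were tested. Of these, edgeR called 0, beside 16.4% of all tested genes, and DESeq2 called 0, beside 19.7%. In edgeR, 1 had an unadjusted p under 0.05, beside 32.6% of all tested genes. The protein-coding gene *Gpr20* had 6 and 0 counts in ctrl and 9, 12 and 10 in cko, too few to carry a fold change. The pseudogene *Gm15387* was at 13.23 and 11.95 CPM in ctrl and at 16.84, 19.81 and 14.98 CPM in cko. Its log2 fold change was 0.45 ± 0.155 (SE), with an adjusted p of 0.091 (edgeR, Benjamini-Hochberg). The other 3, *Gm49066*, *Ndufb4c* and *Gm7935*, had at most 24 counts in any library, and their genotypes overlapped.

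**Figure D3:**
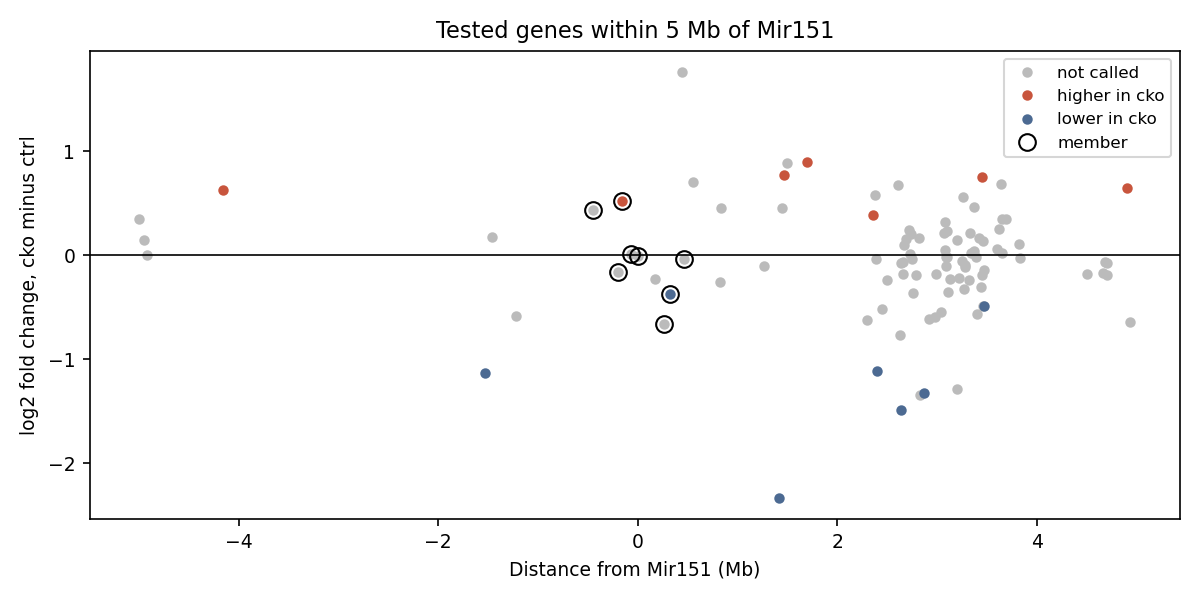
Log2 fold change of cko against ctrl (vertical axis) of the tested genes within 5 Mb of *Mir151*, by distance in Mb (horizontal axis), with called genes in colour and members circled. Of 101 genes, 14 were called, 7 in each direction.

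Levels of different members were compared only per length, as TMM CPM per kb of merged exons. On this scale *Ago2* had the highest mean in both genotypes, at 16.0 over the 5 libraries, followed by *Peg13* at 12.6 and *Ptk2* at 11.9. The order of the last pair differed by genotype: the mean level per kb in ctrl was 10.43 for *Peg13* and 11.96 for *Ptk2*, and in cko 14.07 for *Peg13* and 11.87 for *Ptk2*. The ranges of *Ago2* (14.7 to 16.8) and *Peg13* (9.07 to 15.2) overlapped over the libraries, although *Ago2* was above *Peg13* within each of the 5. Over the 5 libraries, the ranges of *Peg13* and *Ptk2* (11.3 to 12.7) overlapped too. In cko this pair did not overlap: *Peg13* was at 14.04, 12.99 and 15.17 and *Ptk2* at 12.06, 11.7 and 11.85. In ctrl the pair overlapped, with *Peg13* at 11.8 and 9.068 and *Ptk2* at 11.25 and 12.67. The range of *Ptk2* lay above that of *Trappc9* (7.06 to 8.92). *Trappc9* (mean level per kb of 7.62), *Ptp4a3* (7.41) and *Chrac1* (6.89) followed with overlapping ranges, and *Chrac1* had the lowest mean level per kb of these 3 in ctrl (5.48) and the highest in cko (7.84).

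*Slc45a4*, with a mean level per kb of 4.48, had a range of 3.98 to 5.22 that just reached that of *Chrac1*, and *Dennd3*, at 0.503, was below every other tested member in all 5 libraries. Among all tested genes, the level per kb of *Ptk2* was at the 72.1 percentile and that of *Dennd3* at the 14.2 percentile. The place of *Ptk2* depended on its length: its merged exons add up to 11.8 kb and its longest annotated transcript to 4.68 kb, and with the latter *Ptk2* was first, at a level per kb of 30.0. *Ago2* was then second, below *Ptk2* in all 5 libraries. *Trappc9* depended on its length as well. By longest transcript its range (12.4 to 15.6) overlapped that of *Peg13* (9.07 to 15.2), and the order of this pair differed by genotype: the mean level per kb of *Trappc9* was 14.28 in ctrl and 12.73 in cko, beside 10.43 and 14.07 for *Peg13*.

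**Figure D4:**
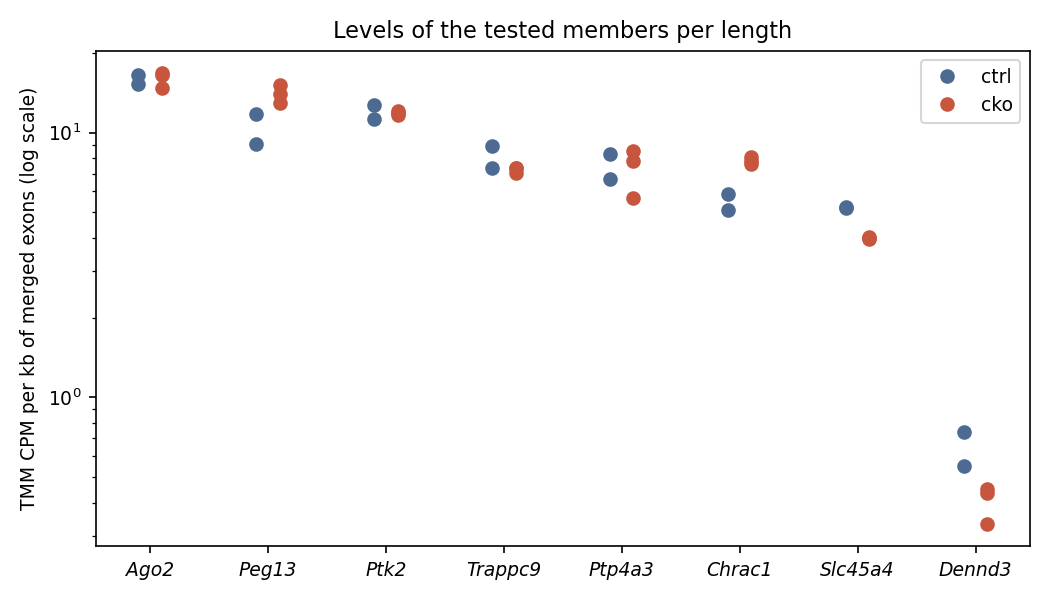
Level per length of each tested member, in TMM CPM per kb of merged exons on a log axis, in ctrl (blue) and cko (red) libraries. By this length *Ago2*, *Peg13* and *Ptk2* were highest and *Dennd3* was lowest; with the longest transcript as length, *Ptk2* passed *Ago2* in all 5 libraries, and *Trappc9* was above *Peg13* in ctrl only.

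The tested genes whose pattern over the 5 libraries was most like that of *Ptk2* were *Eif3f*, *Nip7*, *Elovl5*, *Lonrf2* and *Brd2*. Likeness was the root mean square difference of log2(CPM + 1), centred on each gene's mean, which was 0.0068 for *Eif3f* and 0.0161 for *Brd2*, out of 10179 genes compared. *Eif3f* was at 214 and 238 CPM in ctrl and at 227, 219 and 223 CPM in cko. Its highest level was in ctrl replicate 3 and its lowest in ctrl replicate 1. That *Ptk2* had the same order follows from the choice by likeness over these same libraries.

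Partners, paralogs and related genes of the members were read from lists. Of 99 listed partner genes, 87 were tested, and 5 were higher and 8 lower in cko (edgeR, adjusted p under 0.05, Benjamini-Hochberg), which is 14.9% of those tested, beside 16.4% of all tested genes. With a library left out, between 0 and 11 partner genes were higher and between 4 and 14 lower: the most without ctrl replicate 3, 28.7% of those tested beside 20.4% of all genes, and the fewest without cko replicate 2 or cko replicate 3, 4.6% beside 4.5% and 4.86%. Over all tested genes the median log2 fold change was -0.003.

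*Ptk2* itself was not called, and 7 of 30 tested FAK and focal adhesion partners were called, 2 higher and 5 lower in cko, which is 23.3% beside 16.4% of all tested genes. The median log2 fold change of the list was -0.04. *Itgb5*, an integrin subunit that pairs with the product of *Itgav*, averaged 160 ± 40.2 CPM (SD, n = 2) in ctrl and 43.8 ± 11.3 CPM (SD, n = 3) in cko. Its log2 fold change was -1.87 ± 0.217 (SE), with an adjusted p of 0.00278 (edgeR, Benjamini-Hochberg). *Bcar1*, the adaptor p130Cas that FAK and Src phosphorylate, averaged 74.9 CPM in ctrl and 47.2 CPM in cko, a log2 fold change of -0.67 ± 0.077 (SE) with an adjusted p of 0.00278 (edgeR, Benjamini-Hochberg).

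*Itgb5* and *Bcar1* passed the threshold with each of the 5 libraries left out. *Itgav* had a log2 fold change of -0.59 and *Tns1*, which encodes the focal adhesion protein tensin, one of -0.52, and both calls were lost without cko replicate 2 or cko replicate 3, with adjusted p values up to 0.0917 and 0.0704 (edgeR, Benjamini-Hochberg). The other called genes of the list, named after their values were seen, were *Arhgap26*, lower, and *Dock1* and *Arhgef7*, higher. *Arhgap26* lost its call without any 1 of the 3 cko libraries, *Dock1* without any library but ctrl replicate 3, and *Arhgef7* without ctrl replicate 1, cko replicate 2 or cko replicate 3.

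Around *Ago2*, 1 of 12 tested Argonaute paralogs and partners was called, 8.33% beside 16.4% of all tested genes. *Ago3* averaged 123 CPM in ctrl and 86.7 CPM in cko, a log2 fold change of -0.50 ± 0.074 (SE) with an adjusted p of 0.00611 (edgeR, Benjamini-Hochberg), and passed the threshold with each of the 5 libraries left out. The median of the list was 0.06.

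Of the 6 genes listed with *Chrac1*, 2 were called, 33.3% beside 16.4% of all tested genes. The list also holds *Pole* and *Pole2*, which encode subunits of DNA polymerase epsilon and not of the chromatin accessibility complex. Besides these, only *Smarca5*, of the chromatin accessibility complex, was called. Both called genes were higher in cko, as were 7.86% of all tested genes, and 4 listed genes did not pass the test. The list median was 0.25. *Pole*, the catalytic subunit of DNA polymerase epsilon, averaged 29.4 CPM in ctrl and 64.4 CPM in cko, a log2 fold change of 1.14 ± 0.239 (SE) with an adjusted p of 0.0202 (edgeR, Benjamini-Hochberg). Its call was lost without cko replicate 2 or cko replicate 3, with adjusted p values up to 0.088. *Smarca5*, the ATPase of the complex, had a log2 fold change of 0.28 (edgeR, Benjamini-Hochberg adjusted p of 0.0496) and lost its call in 4 of the 5 fits with a library left out: those without ctrl replicate 1, cko replicate 1, cko replicate 2 or cko replicate 3.

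Of the 13 TRAPP subunits listed with *Trappc9*, *Trappc1* rose by a log2 fold change of 0.41 and *Trappc6a* fell by 0.64 on the log2 scale. These 2 calls were 15.4% of the list, beside 16.4% of all tested genes, and the list median was 0.08. The call of *Trappc1* was lost without cko replicate 2 or cko replicate 3, and that of *Trappc6a* without any 1 of the 3 cko libraries. Of the 6 phosphatases and CNNM partners listed with *Ptp4a3*, *Cnnm3* fell by 0.55 on the log2 scale, with an adjusted p of 0.00495 (edgeR, Benjamini-Hochberg). *Cnnm3* kept its call with each library left out. It was the 1 gene called, 16.7% of the list beside 16.4% of all tested genes, and the list median was -0.09.

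Of all tested genes, 32.6% had an unadjusted p under 0.05 in edgeR and DESeq2 called 19.7%, and the counts of the next 3 lists are to be read beside these shares. Among the 12 tested DENN family genes and *Rab12* listed with *Dennd3*, edgeR called 0 and DESeq2 called 2 (16.7%), with 3 at an unadjusted p under 0.05 in edgeR (25%) and a list median of 0.05. Of 3 genes of the SLC45 family listed with *Slc45a4*, only *Slc45a1* was tested: edgeR and DESeq2 each called 0, with 1 at an unadjusted p under 0.05, and its log2 fold change was -0.60 with an adjusted p of 0.137 (edgeR, Benjamini-Hochberg). Of 13 potassium channel genes listed with *Kcnk9*, 7 were tested, edgeR and DESeq2 each called 0, 2 had an unadjusted p under 0.05 in edgeR (28.6%), and the median was 0.24.

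**Figure D5:**
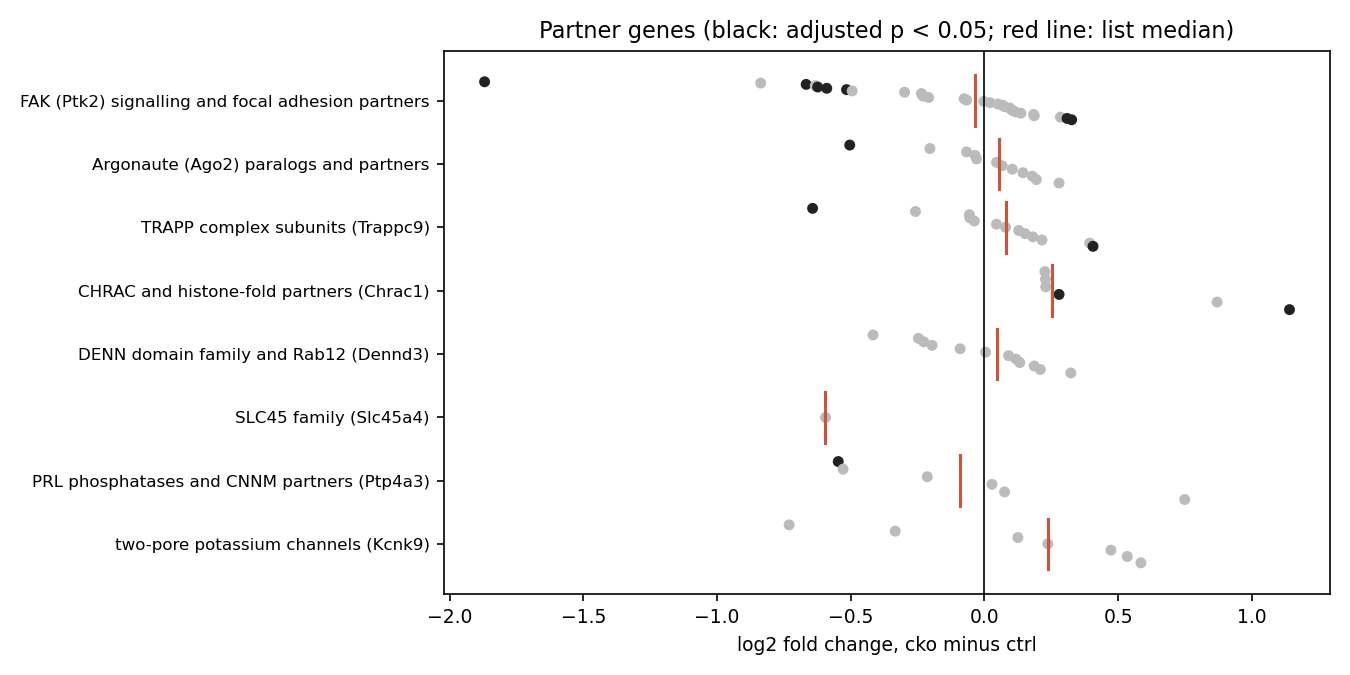
Log2 fold change of cko against ctrl (horizontal axis) of the tested genes listed with each member, with called genes in black and the list median as a red line. *Itgb5*, at -1.87, lay furthest from 0.

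The cells carried NSC markers: the 9 listed genes summed to 8056 and 7075 CPM in ctrl and to 8963, 8373 and 8256 CPM in cko, with *Vim* most abundant. *Nes*, *Hes5* and *Prom1* were called higher in cko and *Slc1a3* lower (edgeR, adjusted p under 0.05), the last of which lost its call without cko replicate 2. *Emx1*, whose locus drives Cre, had 10 and 9 counts in ctrl and 1, 4 and 6 in cko and was not tested, while the other dorsal telencephalic gene, *Emx2*, was at 26.0 to 31.0 CPM in all 5 libraries.

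Some markers of other cell types moved with genotype beside the members. The 5 oligodendrocyte lineage markers reported here summed to 1051 and 1225 CPM in ctrl and to 1075, 1099 and 1052 CPM in cko, so their sums overlapped between the genotypes. *Mbp* averaged 189 CPM in ctrl and 10.5 CPM in cko, a log2 fold change of -4.16, and *Sox10* averaged 176 CPM in ctrl and 47.0 CPM in cko, one of -1.90. Both calls (edgeR, adjusted p under 0.05) held with each of the 5 libraries left out, and *Olig2*, the most abundant, was higher, a call that was lost without ctrl replicate 1 or any 1 of the 3 cko libraries. The 5 astrocyte markers summed to 2013 and 1029 CPM in ctrl and to 958, 547 and 579 CPM in cko. *S100b* and *Slc1a2* were called lower, and *Slc1a2* lost its call without cko replicate 2 or cko replicate 3. *Slc1a2* had the highest mean over the 5 libraries, but *Gfap*, which was not called, exceeded it in ctrl replicate 1. *Gfap* was at 1008 and 177.7 CPM in ctrl and at 297.6, 86.68 and 121.6 CPM in cko.

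The 6 neuronal markers summed to between 1100 and 1227 CPM in every library, with *Map2* most abundant, *Dcx* called lower and *Syt1* called higher in cko. *Foxj1* was the most abundant of 2 ependymal and choroid plexus markers, which summed to 17.7 to 25.5 CPM, and *Neurog2* of 2 intermediate progenitor markers, which summed to 5.069 to 7.997 CPM. Of 4 listed endothelial markers, *Pecam1*, *Kdr* and *Cdh5* had values, which summed to at most 6.71 CPM with *Kdr* most abundant and *Cdh5* at 0. The 4 mural and fibroblast markers summed to at most 3.58 CPM, with *Col1a1* highest on the mean over the libraries. The 5 microglial markers summed to at most 0.481 CPM, with *P2ry12* most abundant and *Cx3cr1* and *Tmem119* at 0, and the 3 erythroid markers to at most 0.655 CPM, with *Alas2* most abundant and both globin genes at 0. The part of these shifts in the values of *Chrac1* and *Slc45a4* was not tested.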

How the data were processed

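The deposited table holds raw gene counts in 6 columns, which the authors made after NGSQC filtering and HISAT2 alignment against mm10; the labels name GRCm39. The counting tool, annotation and strand setting are not given in the sources used here. RNA was extracted with an RNeasy kit per the labels and with TRIzol per the methods. Of 32493 gene IDs, 31829 had a name, a length and a position in GENCODE M21 (GRCm38); of several IDs with 1 symbol, that with the most counts stood for a listed gene. The members and lists were chosen with earlier results of these data known.

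Counts of 5 libraries were filtered by filterByExpr, normalized by TMM and tested with edgeR 4.0.16 (quasi-likelihood) in R 4.3.3, with Benjamini-Hochberg adjustment over 16710 genes; DESeq2 1.42.0 was an alternative. Standard errors were derived from the fold change and its F statistic. Confidence intervals are 95%, and the floor is 3 counts and covers counting error only. Simulated counts with known changes, larger than those of the tested members, served to test both tools. Named genes were the members, other tested genes within 1 Mb of *Mir151*, called partner genes (the 4 with the smallest p where more than 4 were called), the 5 genes most like *Ptk2*, the cell type markers and *Emx1*; a listed oligodendrocyte lineage marker is not reported here and was left out of the sums. Alternatives were DESeq2, median-of-ratios factors, other filters, all 6 columns, a replicate block, leaving out each library, the study's threshold, wider windows and another length. A planned search for miR-151 seed matches was not run.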

Additional observations from a re-analysis of the deposited data

How the results depend on the processing

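Without a filter on low counts, 1838 genes were higher and 2237 lower in cko (13.4%), and with DESeq2 1581 and 1703 (19.7%). With all 6 columns, 2865 genes were higher and 2794 lower (34.7%), 2 members were higher and 2 lower, 3 genes within 1 Mb of *Mir151* were higher and 2 lower, and 18 partner genes were higher and 16 lower; this fit counts the averaged column as a library. Members higher in cko numbered 2 with DESeq2 and 2 without the filter, as did genes within 1 Mb, while partner genes higher numbered 9 in both. Under the study's threshold, 399 genes were higher and 696 lower, 0 members and 0 genes within 1 Mb were called in either direction, and 1 partner gene was higher and 1 lower.

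The genotypes share replicate numbers 1 and 3 only, and nothing says that a number marks a litter, although the study describes littermates. The deviations of same-numbered libraries had an r of 0.21 across 10180 genes, which are not independent replicates. With a replicate block, 918 genes were higher and 1065 lower (11.9%), 1 member was higher and 0 lower, 0 genes within 1 Mb were lower, and 2 partner genes were higher and 7 lower. Under the block the log2 fold change was 0.002 for *Ptk2*, -0.027 for *Ago2*, 0.52 for *Chrac1* (adjusted p of 0.0899, no longer called), -0.37 for *Slc45a4* (0.0886, no longer called) and 0.50 for *Peg13* (0.0408, called).

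*Peg13* was also called with DESeq2 (log2 fold change 0.42), without the filter (0.43), with all 6 columns (0.43) and without ctrl replicate 1 (0.62), as was *Dennd3* with all 6 columns (-0.67). *Ago2* changed sign with at least 10 counts in every library (-0.007).

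With each library left out, genes higher in cko ranged from 317 to 1812 and genes lower from 416 to 2062; without cko replicate 2 there were 317 and 416, without cko replicate 3 336 and 457, and without cko replicate 1 853 and 907. Members higher ranged from 0 to 1 and lower from 0 to 2, genes within 1 Mb higher from 0 to 2 and lower from 0 to 2, and partner genes higher from 0 to 11 and lower from 4 to 14. Log2 fold changes ranged over -0.104 to 0.081 for *Ptk2*, -0.057 to 0.072 for *Ago2*, 0.41 to 0.62 for *Chrac1*, -0.307 to -0.019 for *Trappc9*, -0.85 to -0.44 for *Dennd3*, -0.39 to -0.36 for *Slc45a4*, -0.19 to 0.14 for *Ptp4a3* and 0.26 to 0.62 for *Peg13*. The fits without a ctrl library assume that the lone ctrl varies like cko. *Ptk2*, *Ago2* and *Ptp4a3* changed sign in some fits, and none of the 3 passed the threshold in any of 11 alternatives. The cause of these differences was not tested. *Kcnk9*, with at most 4 counts in a library, was too low to test.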
